A study of Mus musculus with 20 samples.

Results

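The heart of mice given DHEA was compared with the heart of mice given oil, in 1 bulk RNA-seq library each. These are 2 of 20 libraries, which cover 10 tissues with 1 library per tissue and treatment. All mice were wild type, and ovary and uterus libraries of both treatments show that female mice were used. DHEA, dehydroepiandrosterone, is an adrenal steroid that tissues can convert to androgens and oestrogens. The control mice received oil alone, written sasame oil in the labels. The sources used here do not state how much DHEA was given or for how long, how old the mice were, how many animals stand behind a library, or which piece of the heart was taken. All genes of the deposited table whose symbol occurs once were considered, 24769 symbols of 24826 rows. Levels are in FPKM, reads scaled to the length of the gene and the depth of the library. A gene was counted where the mean of its 2 levels was at least 5 FPKM, which held for 5620 genes. The difference is given as log2 of DHEA over control after adding 1 FPKM to each level, so that a positive value is a higher level in the DHEA heart, and 2-fold on that scale was the threshold. With 1 library a group there is no replicate error and no p-value. Each fold of FPKM is therefore given with an exact binomial 95% interval from the reads behind it, which reflects the number of reads and holds no variation between animals.

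The heart has atria, which receive blood, and ventricles, which pump it out. Their muscle cells share most of the contractile apparatus but use different myosin light chains, different regulators of the calcium pump and different peptide hormones, so these genes tell the chambers apart in RNA from mixed tissue. A specialised conduction system sets and spreads the beat, and mitochondria, which carry a small genome of their own, supply the energy for it. Resident macrophages and a few other leukocytes present antigen on class II molecules. In bulk RNA a change in the number of cells of a type and a change in RNA per cell cannot be told apart.

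Most genes differed little between the 2 hearts. Of the 5620 counted genes, 27 were at least 2-fold higher with DHEA, which is 0.48%, and 19 were at least 2-fold lower, which is 0.338%. The other 5574 lay between. The median log2 ratio was 0.06, and 5% of genes were below -0.27 and 5% above 0.36. The recovered reads came to 17351494 in the control library and 15371078 in the DHEA library, so a gene of 2 kb at 5 FPKM rested on about 176 and 155 reads. Both libraries carried the defining genes of heart muscle at high levels: Mb, myoglobin, was at 7944 and 8005 FPKM in control and DHEA, and Actc1, cardiac actin, at 6410 and 8518. Defining markers of tissues next to the heart were near 0, apart from Hopx of the lung list, which heart muscle also expresses, at 155.5 and 129.4 FPKM: the lung surfactant gene Sftpc was at 0 in both, and the thymocyte gene Rag1 stood at 0.0086 in control and 0 with DHEA. Just inside the threshold, Igfbp6 had a log2 ratio of 1.01 and Hba-a1 of -1.03. Just outside it, Ednra, an endothelin receptor, was at 0.99 and the mitochondrial gene ND1 at -0.99.

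**Figure D1:**
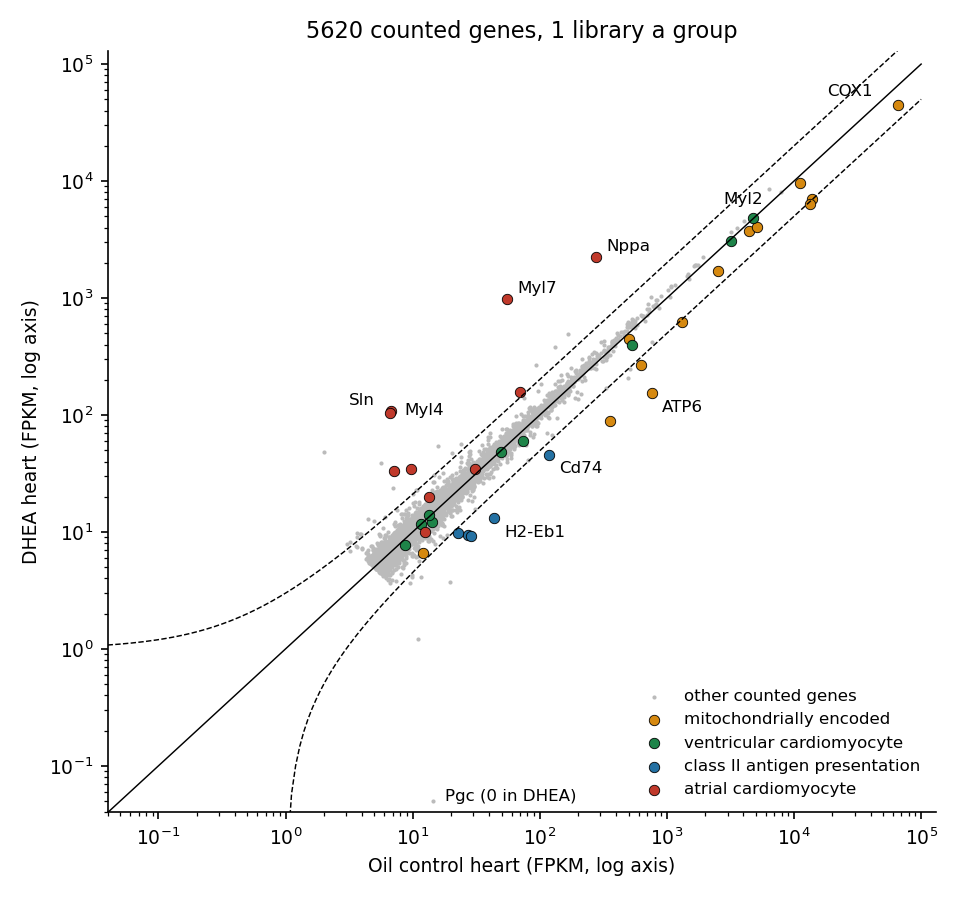
Level of each of 5620 counted genes in the oil control heart (x axis) and the DHEA heart (y axis), both in FPKM on log axes. The solid line marks equal levels and the dashed lines mark 2-fold after adding 1 FPKM. Myl7, Myl4, Sln and Nppa of the atrial list lie far above the upper line, the 5 counted class II genes lie below the lower line, and Myl2 lies on the line of equality. Pgc, at 0 FPKM in the DHEA heart, is drawn at the bottom edge.

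Genes of atrial muscle had the highest median of the lists with a counted gene. Of the 16 atrial genes listed, 10 were counted, 7 of these were at least 2-fold higher with DHEA and 0 were lower, beside 0.48% of all counted genes. Their median log2 ratio was 1.89, against 0.06 over all counted genes. The FPKM of the 16 genes summed to 497 in the control heart and 3713 in the DHEA heart.

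The windows just before the start of Myl7 and Nppa of this list, and of Mybphl, a myosin-binding gene in no list, are printed because the report turns on genes that moved together, and they show what letters lie in front of them. They are the 250 bases before the annotated start, 5′ to 3′ on the gene's own strand, from RefSeq on the build GRCm38.p6, matched by gene symbol. Myl7 lies at chr11:5898783-5899032 on the minus strand, Nppa at chr4:148000472-148000721 on the plus strand and Mybphl at chr3:108364661-108364910 on the plus strand. Capitals mark GATAA on either strand, the core read by GATA factors, in all 3 windows. They also mark the CArG box bound by serum response factor in Myl7 and TATAAA in Nppa.
Myl7: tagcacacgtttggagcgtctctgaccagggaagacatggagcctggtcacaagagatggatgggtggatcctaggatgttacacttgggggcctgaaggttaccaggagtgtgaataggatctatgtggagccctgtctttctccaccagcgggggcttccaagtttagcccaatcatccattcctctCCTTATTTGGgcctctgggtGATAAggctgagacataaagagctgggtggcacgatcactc
Nppa: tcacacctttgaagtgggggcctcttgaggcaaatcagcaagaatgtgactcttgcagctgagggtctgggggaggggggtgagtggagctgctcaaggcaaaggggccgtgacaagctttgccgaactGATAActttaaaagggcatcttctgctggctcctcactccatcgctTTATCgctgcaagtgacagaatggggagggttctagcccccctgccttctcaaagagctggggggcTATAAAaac
Mybphl: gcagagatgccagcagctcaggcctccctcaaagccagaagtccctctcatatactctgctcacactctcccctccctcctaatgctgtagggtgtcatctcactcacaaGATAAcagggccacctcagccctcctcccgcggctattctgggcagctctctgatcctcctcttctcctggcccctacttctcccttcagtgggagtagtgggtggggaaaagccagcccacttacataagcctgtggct
The GATAA of Myl7 ended 36 bases before its start and that of Mybphl 135 bases before. Nppa held 2, which ended 116 and 70 bases before its start. The lookup covered the 7 atrial list members past the threshold (Myl7, Myl4, Nppa, Sln, Dkk3, Stard10 and Pam) and Mybphl and Sbk3, which are in no list. All 9 were picked for their heart ratio, so the count is a description only. Of these 7 had a window and 5 of those held GATAA, a string found in 22.6% of all 32851 windows of this length. A CArG box occurs in 1.47% of all windows and TATAAA in 12.4%. A match describes these letters and is no evidence of binding.

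Among the counted atrial list members the sarcomere genes had the largest ratios. Myl7, the atrial regulatory light chain of myosin, was at 55.1 FPKM in the control heart and 977 in the DHEA heart, which is 17.7-fold higher (16.3 to 19.3). Its partner Myl4, the atrial essential light chain, went from 6.81 to 109 FPKM, 16.0-fold (14.6 to 17.4). Both were present in the control heart, on 571 reads for Myl7 and 555 for Myl4. Mybphl, a myosin-binding protein found in atrial and conduction muscle, was at 2.01 FPKM in control and 47.8 with DHEA, 23.8-fold higher (17.7 to 32.9). Their ventricular counterparts did not shift with them. Myl2, the ventricular regulatory light chain, was at 4738 and 4807 FPKM, and Myl3, the ventricular essential light chain, at 3186 and 3091. Expressed within each library, which removes the scaling of the library, Myl7 was 1.16% of the Myl2 level in the control heart and 20.3% in the DHEA heart. By the same measure Myl4 went from 0.214% to 3.52% of Myl3. Mybphl went from 0.243% to 5.34% of Mybpc3, the cardiac myosin-binding protein of all chambers.

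Genes of calcium pump regulation and peptide secretion were higher too. Sln encodes sarcolipin, the small peptide that restrains the calcium pump of atrial muscle. It was at 6.70 FPKM in the control heart and 104 in the DHEA heart, 15.5-fold higher (13.2 to 18.4). Pln, phospholamban, which has that role in the ventricle, was at 536 and 399 FPKM. Sln was thus 1.25% of the Pln level in control and 26.0% with DHEA. Nppa, the precursor of atrial natriuretic peptide, a hormone that lowers blood volume and pressure, was at 275 and 2226 FPKM, 8.09-fold higher (7.83 to 8.36). Pam, the enzyme that amidates peptides and a main membrane protein of atrial secretory granules, was at 70.1 and 158 FPKM, 2.25-fold (2.21 to 2.29). The remaining atrial genes past the threshold were Dkk3, a secreted protein of the Dickkopf family, at 7.14 and 33.0 FPKM (4.63-fold, 4.16 to 5.16), and Stard10, a lipid transfer protein, at 9.74 and 34.5 (3.54-fold, 3.16 to 3.96).

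Atrial ion channels and transcription factors did not share the size of this difference. Kcnj3 and Kcnj5 form the potassium channel that acetylcholine opens in the atrium. Kcnj3 was at 13.5 and 19.8 FPKM, 1.47-fold (1.36 to 1.58), and Kcnj5 at 31.2 and 34.3. Kcna5, an atrial repolarising channel, was at 12.6 and 9.99 FPKM. These 3 counted members stayed under 2-fold, and Kcna5 pointed the other way. The transcription factors of atrial identity were under the minimum: Nr2f1 was at 0.525 and 0.771 FPKM, Nr2f2 at 2.30 and 2.64, and Hey1 at 4.41 and 3.17. Cacna2d2, a calcium channel subunit, was at 0.444 and 0.324.

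Against the direction of the larger atrial genes, Bmp10, a growth factor of right atrial muscle, was at 1.26 FPKM on 99 reads in the control heart and 0.029 on 2 reads in the DHEA heart, a 43.8-fold lower level with a wide interval (11.8 to 367). It lay far below the minimum of 5 FPKM and is not among the counted genes.

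**Figure D2:**
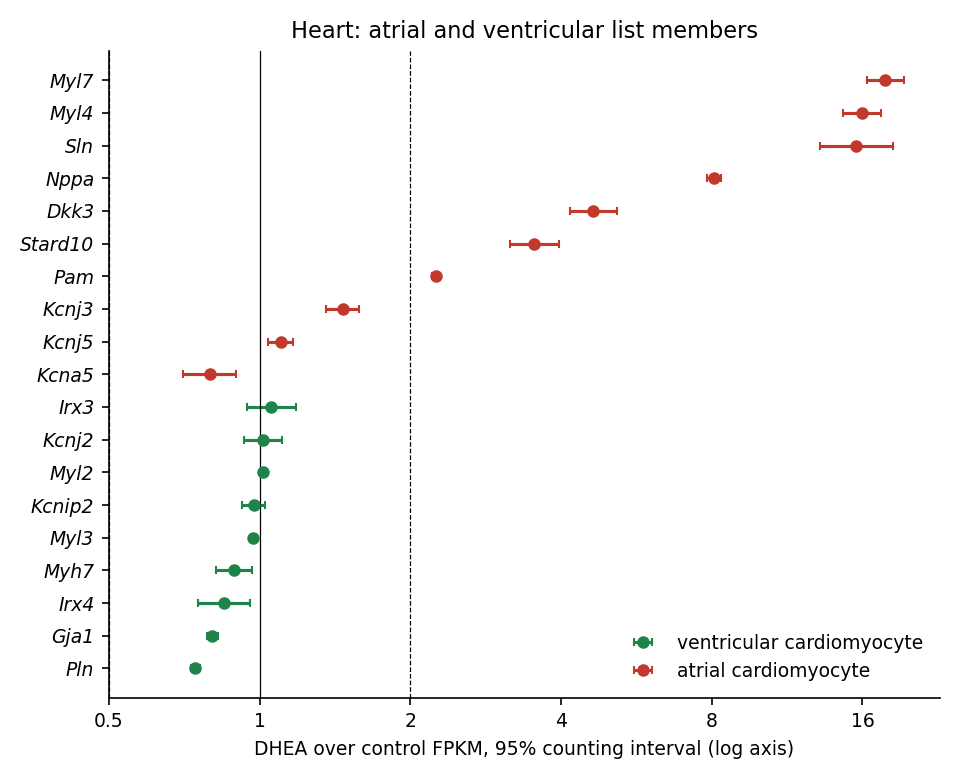
Fold of FPKM, DHEA over control, for the 10 counted atrial and 9 counted ventricular list members, on a log axis. Bars are exact 95% counting intervals from the reads of 1 library a group and hold no variation between animals. Atrial genes run from 0.794-fold for Kcna5 to 17.7-fold for Myl7, and the ventricular genes run from 0.744-fold for Pln to 1.06-fold for Irx3.

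RNA of the cells that cover the heart surface was higher with DHEA, as it was for most counted atrial genes. All 14 listed genes of epicardium and mesothelium had a higher level with DHEA than in control. Of all counted genes 65.5% were above 0, but that set holds only 1 of the 14. The share over genes under the minimum is not given. Their summed level was 47.0 FPKM in control and 93.8 with DHEA. Igfbp5, at 36.5 and 51.0 FPKM, was the 1 counted member, and the other 13 were under the minimum. Upk3b, an uroplakin of mesothelium, was at 0.790 and 8.99 FPKM, 11.4-fold higher (8.47 to 15.6). Msln, mesothelin, was at 0.372 and 4.41, and Krt19, a keratin, at 0.123 and 3.47. Bnc1 had 0 reads in control and 33 with DHEA, at least 12.4-fold higher against a floor of 3 reads in the control library. The part of these covering cells in the atrial difference was not tested. More atrial tissue in the sampled piece and more of these RNAs per atrial cell cannot be told apart.

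Ventricular genes did not pass the threshold in either direction. Of 12 listed genes 9 were counted, with a median log2 ratio of -0.04 and a range from -0.43 to 0.07. The transcription factor Irx4, which marks ventricular muscle, was at 14.3 FPKM in control and 12.2 with DHEA, and Irx3, which acts in the ventricular conduction network, at 13.3 and 14.1. Gja1, the main gap junction protein of ventricular muscle, was at 74.3 and 59.7, a 1.24-fold lower level (1.21 to 1.28). Kcnip2 and Kcnj2, which carry or tune potassium currents, were at 49.2 and 47.8 and at 11.6 and 11.8. Myh7, the slow myosin heavy chain that adult mouse ventricle holds at low level, was at 8.78 and 7.79. Irx5, Hey2 and Prdm16 stayed under the minimum in both hearts, at no more than 3.98 FPKM.

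Genes that all heart muscle uses stayed under the threshold. Of 32 shared genes 31 were counted, 0 passed the threshold, 24 were above 0, beside 65.5% of all counted genes, and the median log2 ratio was 0.19. Besides Actc1, Myh6, the fast myosin heavy chain, was at 3552 and 3978 FPKM, Tnni3, cardiac troponin I, at 1913 and 2250, and Tnnt2, cardiac troponin T, at 797 and 837. Calcium handling genes gave the same picture, with 17 counted, 0 past the threshold and a median of 0.17: Atp2a2, the calcium pump itself, was at 3168 and 3674, and Ryr2, the release channel, at 70.7 and 78.2.

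Conduction genes showed 1 of 6 counted members at least 2-fold higher, beside 0.48% of all counted genes. Gja5, the gap junction protein of atrial muscle and of the His and Purkinje fibres, was at 3.07 and 7.95 FPKM, 2.59-fold higher (2.26 to 2.97), though with a pseudocount of 5 FPKM its log2 ratio was 0.68. The other 5 counted members stayed under 2-fold, and the median of all 6 was 0.02. Gjc1, a gap junction protein of nodal cells, was at 5.25 and 5.39, and Id2 at 4.69 and 5.89. Hcn2, a pacemaker channel, was at 13.2 and 8.32, and Smoc2 at 17.0 and 13.9. The sinus node genes were low or absent: Hcn4, the main pacemaker channel, was at 3.57 and 3.50, Tbx3 at 2.38 and 3.21, Shox2 at 0.138 and 0.233, and Isl1 at 0 in both libraries. Of the 24 listed genes 18 were under the minimum, with 3.57 FPKM as their highest level. Among them Cacna1h, a T-type calcium channel subunit, was at 1.38 and 2.60, 1.88-fold (1.60 to 2.22), and Hcn4 rested on 384 and 333 reads, 0.980-fold (0.844 to 1.14).

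Peptide and load genes were mostly higher, but few passed the threshold. In the list of natriuretic peptides and load response 18 of 25 genes were counted, and 17 were above 0, beside 65.5% of all counted genes. The median was 0.30, and 3 were at least 2-fold higher, beside 0.48% of all counted genes. Besides Nppa these were Nppb and Ccn1. Nppb, the precursor of brain natriuretic peptide, was at 167 and 490 FPKM, 2.94-fold (2.80 to 3.09), so that Nppa went from 165% to 454% of Nppb. Ccn1, a matricellular protein induced by stretch, was at 20.2 and 47.1, 2.33-fold (2.13 to 2.55). Other genes that rise in a loaded ventricle were not past the threshold: Ankrd1 was at 210 and 232, and Acta1, skeletal actin, at 165 and 189.

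**Figure D3:**
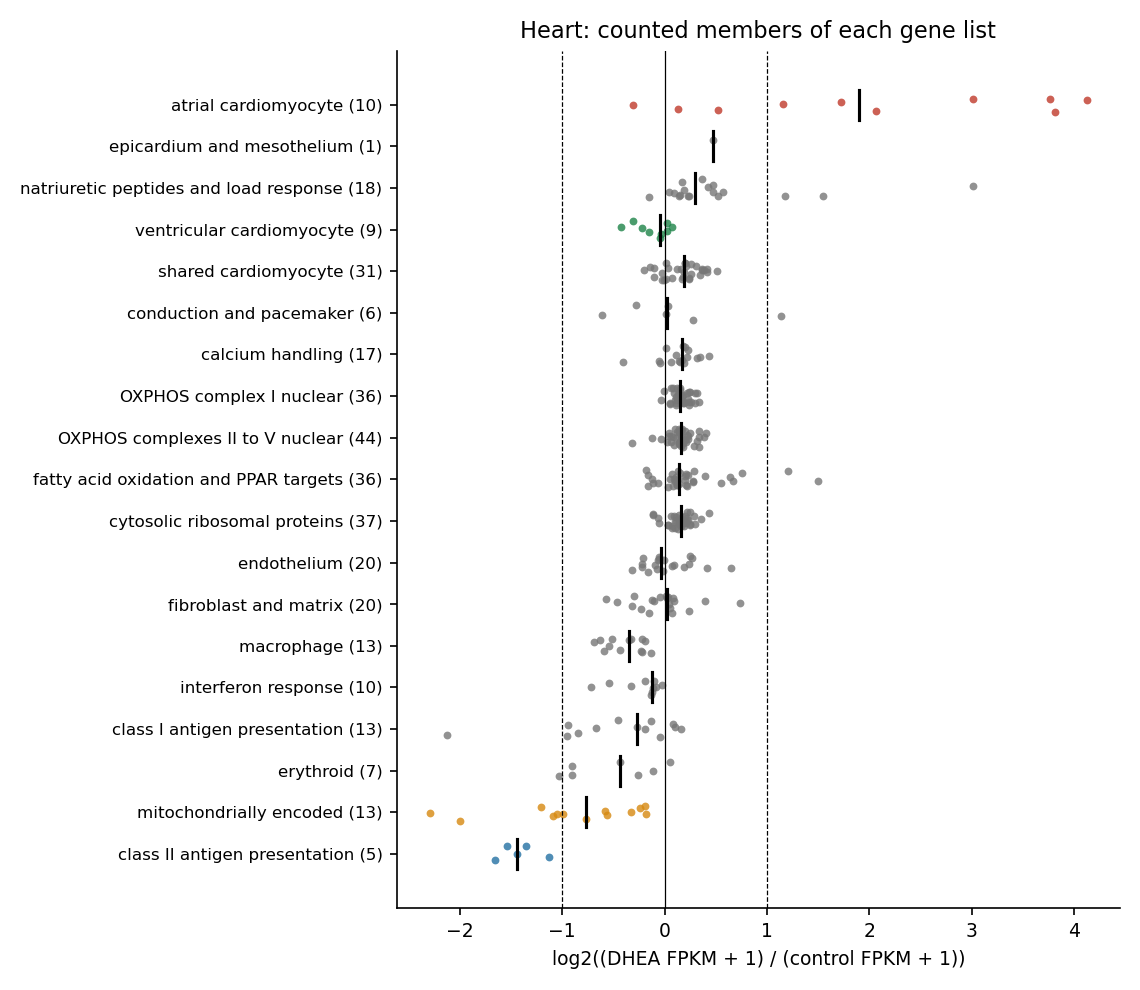
log2 ratio of every counted member of 19 gene lists (x axis; 1 point per gene, number of counted members in brackets), with the list median as a black bar and dashed lines at 2-fold. The atrial list is the highest with a median of 1.89, the class II list the lowest of those shown with -1.45, and the mitochondrially encoded list is at -0.77 while both nuclear OXPHOS lists sit near 0.15. Points are jittered vertically.

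Class II antigen presentation was lower in the DHEA heart. All 5 counted genes of this list were at least 2-fold lower, beside 0.338% of all counted genes, and the median log2 ratio was -1.45. All 12 genes of the list, counted or not, were below control, while 65.5% of all counted genes were above 0. Among the 7 under the minimum, H2-Eb2 had 2 and 0 reads and H2-Oa 5 and 3, too few to give a direction. The summed level of the 12 was 248 FPKM in control and 90.7 with DHEA.

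The windows before 2 class II genes are printed because their promoters share a known set of boxes that the activator Ciita works through. They come from the same RefSeq table and build, H2-Eb1 at chr17:34305617-34305866 on the plus strand and H2-Aa at chr17:34287824-34288073 on the minus strand. Capitals mark GATTGG on either strand, the letters of the Y box that the factor NF-Y reads.
H2-Eb1: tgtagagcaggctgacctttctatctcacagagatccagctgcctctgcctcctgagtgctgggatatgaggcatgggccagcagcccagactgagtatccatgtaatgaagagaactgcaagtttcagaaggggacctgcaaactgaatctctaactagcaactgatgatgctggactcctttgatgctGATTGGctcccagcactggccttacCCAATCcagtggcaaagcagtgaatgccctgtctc
H2-Aa: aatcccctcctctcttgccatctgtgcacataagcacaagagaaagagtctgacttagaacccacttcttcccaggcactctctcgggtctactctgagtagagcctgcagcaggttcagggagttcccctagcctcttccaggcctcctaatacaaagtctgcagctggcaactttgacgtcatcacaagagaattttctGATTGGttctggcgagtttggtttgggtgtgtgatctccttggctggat
In H2-Eb1 the matches ended 54 and 29 bases before the start, and in H2-Aa the match ended 43 bases before. Of the 5 lower genes 3 had a window, and 2 of those held GATTGG, while 14.6% of all windows did. The 250 bases before Ctss held none. The 5 genes were picked for their heart ratio and the box because class II promoters are known to share it. The count is therefore a description only, and a match is no evidence of binding.

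H2-Eb1, a beta chain of the class II molecule, was at 43.3 FPKM in the control heart and 13.05 in the DHEA heart, 3.32-fold lower (2.97 to 3.72). The other chains were close to it: H2-Ab1 was at 28.6 and 9.17 (3.12-fold lower, 2.77 to 3.51) and H2-Aa at 27.3 and 9.37 (2.91-fold lower, 2.64 to 3.21). Cd74, the invariant chain that fills the groove until peptide is loaded, was at 118 and 45.7, 2.59-fold lower (2.43 to 2.77). Ctss, cathepsin S, which cuts the invariant chain, was at 22.7 and 9.86, 2.30-fold lower (1.96 to 2.71), with a log2 ratio of -0.90 under a pseudocount of 5 FPKM. Chains, chaperone and protease thus had folds between 2.30 and 3.32. The activator Ciita was at 0.436 and 0.155 FPKM on 73 and 23 reads, 2.81-fold lower (1.74 to 4.70), and the peptide editors H2-DMa and H2-DMb1 were at 2.20 and 0.915 and at 3.79 and 2.03. These 3 were under the minimum.

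Macrophage genes as a whole moved less. All 13 counted genes of the macrophage list were below 0, while 65.5% of all counted genes were above 0. None passed the threshold, and the median was -0.35. Lyz2, lysozyme, was at 200 and 136 FPKM, C1qa, a complement subunit made by tissue macrophages, at 50.6 and 43.1, Csf1r, the growth factor receptor of the lineage, at 13.9 and 8.65, and Adgre1, which encodes F4/80, at 6.84 and 3.86. Summed over 25 genes the level was 426 FPKM in control and 309 with DHEA, a smaller change than that of the class II sum. Mpeg1, perforin-2 of phagocytes, was at 9.92 and 4.16, 2.38-fold lower (2.08 to 2.75). It is in no list and is named after its value was seen. Dendritic cell, T and NK cell and mast cell genes were all under the minimum, with no level above 2.94 FPKM in either heart. The part of leukocyte number in the class II difference was not tested.

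The other immune lists pointed both ways. Of neutrophil genes 2 were counted, both above 0 with a median of 0.48. Of all 15 listed, counted or not, 5 were higher with DHEA and 10 were lower. The summed level of the list was 21.3 FPKM in control and 23.1 with DHEA. Chemokine and adhesion genes had a median of 0.26 over 4 counted members, with sums of 74.9 and 94.2. Complement and acute phase genes had a median of 0.06 over 7, with sums of 122 and 160. Of these 1 (C3) was at least 2-fold higher, beside 0.48% of all counted genes. B and plasma cell genes had a median of -0.86 over 2 counted members. Among them Igkc, the kappa light chain constant region, was at 9.53 and 3.63 FPKM on 89 and 30 reads, 2.62-fold lower (1.72 to 4.11), Ighm, the heavy chain of IgM, at 9.96 and 6.59, and Cd79a, a B cell receptor subunit, at 2.42 and 0.928. Among 13 counted class I genes 1 was at least 2-fold lower, beside 0.338% of all counted genes, and the median was -0.27. Below 0 were 10 of the 13, while 65.5% of all counted genes were above 0. B2m, the common light chain of class I, was at 333 and 171, 1.95-fold lower (1.85 to 2.05), H2-K1 at 80.2 and 41.2, and H2-D1 at 113 and 70.7. H2-Q6 was at 19.8 and 3.77, 5.26-fold lower (4.34 to 6.43), but it belongs to a family of near-identical genes among which reads can be divided, so its value is uncertain. All 10 counted interferon response genes were below 0, with 0 past the threshold and a median of -0.13: Igtp, a GTPase induced by interferon gamma, was at 14.6 and 8.44, and Bst2, tetherin, at 32.5 and 28.4.

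Genes of red cells were lower as well. Of 7 counted erythroid genes 1 was at least 2-fold lower, beside 0.338% of all counted genes, and the median was -0.43. Hba-a1, an alpha globin, was at 511 and 250 FPKM, 2.05-fold lower (1.96 to 2.13), and -0.95 in the authors' deposited table. Hbb-bt, a beta globin, was at 126 and 66.8, and Alas2, which starts haem synthesis in erythroid cells, at 18.5 and 9.43. Hbb-b1, which is in no list, was at 761 and 424. Globin genes come in near-identical copies, so the split between copies is uncertain. The globin levels moved in the same direction as the class II and B cell genes, and the part of blood left in the tissue was not tested.

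Mitochondrially encoded RNA was lower for every one of 13 protein genes. Of these 5 were at least 2-fold lower, beside 0.338% of all counted genes. The median log2 ratio was -0.77, and the range ran from -2.29 to -0.18. The 13 genes held 32.5% of the FPKM sum in the control heart and 22.7% in the DHEA heart, or 16.1% and 10.7% of the reads. COX1, a core subunit of cytochrome c oxidase and the most abundant RNA of both libraries, was at 66253 and 44926 FPKM, 1.47-fold lower (1.47 to 1.48).

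The genes of the mitochondrial genome are transcribed together, but their differences were unequal. ATP6, a subunit of ATP synthase, was at 757 and 154 FPKM, 4.92-fold lower (4.67 to 5.19), and ND4L, a subunit of complex I, at 357 and 88.6, 4.03-fold lower (3.62 to 4.49). COX2 was at 620 and 269 (2.31-fold lower), COX3 at 1314 and 619 (2.12-fold lower) and CYTB, cytochrome b of complex III, at 13238 and 6404 (2.07-fold lower). CYTB was at -0.97 in the authors' deposited table, which differs from the log2 FPKM ratio by 1 constant. At the other end ND2 was at 11061 and 9667, ND3 at 502 and 442 and ND5 at 4454 and 3777, all complex I subunits, which are 1.14-, 1.14- and 1.18-fold lower. ND6 is encoded on the other strand, and ATP8 overlaps ATP6 and ND4L overlaps ND4 in part, so reads from these pairs may be divided or shared.

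Part of this spread sits on genes that the nuclear genome repeats. Every 50-base window of each mitochondrial gene was looked up in the annotated nuclear transcripts of GENCODE vM21, on both strands, with no mismatch. Windows found there made up 99.5% of ATP6, 98.8% of ND4L, 100% of COX2, 99.9% of COX3 and 98.0% of ND3, but 0% of ND1, ND6, ATP8 and CYTB. The pseudogene Gm10925 on chromosome 1 was identical to ATP6 over 678 of 678 bases, and it was itself at 493 and 206 FPKM, 2.39-fold lower (2.28 to 2.52). The sources used here do not say how reads that fit both places were counted, so the values of these 5 genes and of Gm10925 are uncertain. ND4, with 62.2% of its windows repeated, and COX1, with 51.1%, are uncertain in part, and COX1 held 64.5% of the mitochondrial reads in control and 65.6% with DHEA. Of the 5 repeated genes 4 were at least 2-fold lower, and ND3 was not. The 4 genes with no repeat gave CYTB at -1.05, ND1 at -0.99 (13868 and 6978 FPKM), ATP8 at -0.77 (12.0 and 6.63 FPKM, on 43 and 21 reads) and ND6 at -0.32 (5097 and 4070 FPKM), a median of -0.88. Over the 6 genes with under 10% of their windows repeated, which adds ND2 and ND5, the median was -0.55. Both medians were computed after the data were seen.

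**Figure D4:**
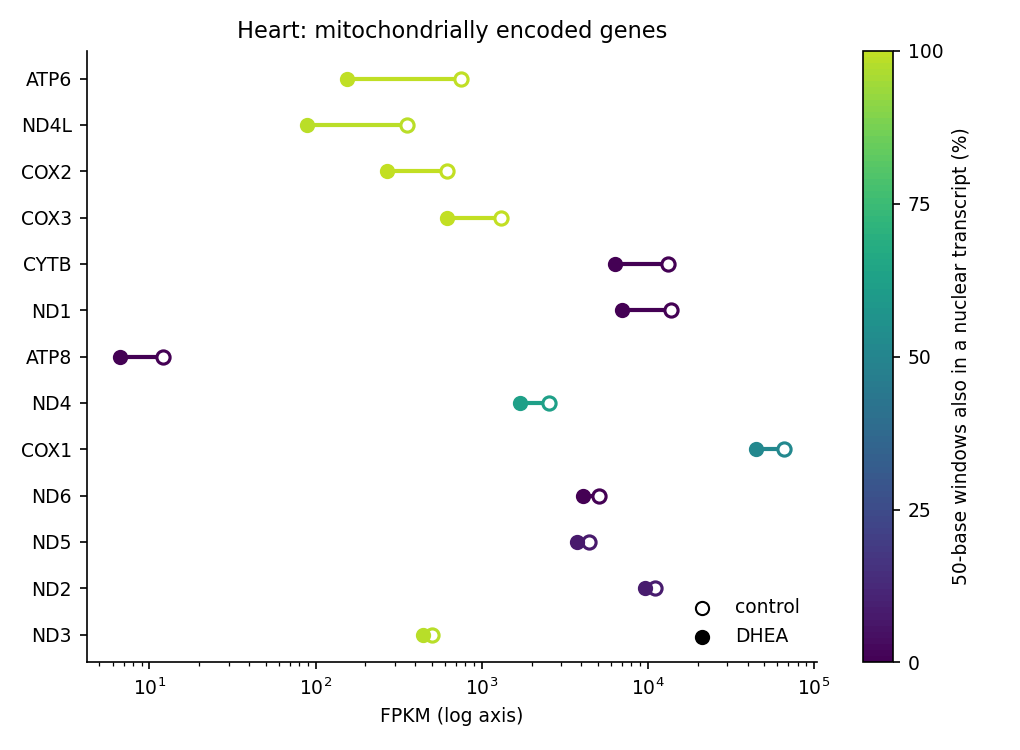
FPKM of the 13 mitochondrially encoded protein genes in the control heart (open circles) and the DHEA heart (filled circles) on a log axis, ordered by log2 ratio. Colour gives the percent of the gene's 50-base windows that also occur in an annotated nuclear transcript. Every DHEA point lies to the left of its control point, with the longest step for ATP6 and ND4L, whose windows are almost all repeated, and steps of about 2-fold for CYTB and ND1, whose windows are not.

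Nuclear genes for the same respiratory complexes did not move with them. Of 36 counted complex I genes 34 were above 0, where 65.5% of all counted genes lay, 0 passed the threshold and the median was 0.15. Ndufb10, an accessory subunit, was at 483 and 569 FPKM. Of 44 counted genes for complexes II to V 41 were above 0, with a median of 0.16: Atp5a1, the alpha subunit of ATP synthase, was at 1700 and 1912, and Cox4i1, a nuclear subunit of cytochrome c oxidase, at 1077 and 1239. For ATP synthase the mitochondrial ATP6 and the nuclear Atp5a1 therefore had log2 ratios of -2.29 and 0.17. FPKM are shares of a library, so a smaller mitochondrial share raises the others by construction. Genes of the mitochondrial ribosome, which translate the 13 RNAs, had a median of 0.11 over 31 counted members. Cytosolic ribosomal proteins had 0.16, and the ventricular and endothelial lists had -0.04 each.

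Fuel genes gave 2 members past the threshold. Of 36 counted genes of fatty acid oxidation and PPAR targets, Pdk4 and Angptl4 were at least 2-fold higher, beside 0.48% of all counted genes. The median was 0.14, and 0 were at least 2-fold lower. Pdk4, the kinase that closes pyruvate dehydrogenase and spares glucose, was at 94.2 and 268 FPKM, 2.85-fold higher (2.76 to 2.94). Angptl4, a secreted inhibitor of lipoprotein lipase, was at 3.65 and 9.71, 2.66-fold (2.27 to 3.12). The enzymes of the oxidation spiral were not past it: Acadl, a long-chain dehydrogenase, was at 495 and 568, and Acaa2 at 585 and 675. Pdk4 and Angptl4 are also in the list of glucocorticoid targets, where the other 11 of 13 counted genes stayed under 2-fold: Tsc22d3 was at 20.1 and 19.2, Ddit4 at 55.3 and 42.1 and Cdkn1a at 28.5 and 49.4.

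The rest of the 27 higher genes had varied functions. Gpx3, the secreted glutathione peroxidase, was at 132 and 381 FPKM, 2.88-fold (2.78 to 2.99), and the other 15 counted antioxidant genes stayed under 2-fold. Tnfrsf12a, the receptor for the cytokine TWEAK, was at 15.7 and 54.7, 3.48-fold (3.16 to 3.85). C3, the central complement component, was at 24.0 and 56.7, 2.36-fold (2.25 to 2.49). Spon2, a matrix protein, was at 4.44 and 12.8, and Igfbp6, an IGF-binding protein, at 14.8 and 30.9. Plvap, a protein of endothelial diaphragms, was at 3.67 and 9.01. Sbk3, a kinase of the SH3-binding domain family, was at 5.61 and 38.7, 6.89-fold higher (6.11 to 7.79), and its relative Sbk2 at 3.84 and 9.51. Rps2-ps10, at 6.96 and 23.9, is a pseudogene of Rps2, which itself was at 564 and 632, so its reads are uncertain. Podn, Spock2, Slc17a7, Dusp8 and Olfml2b complete the 27, with log2 ratios between 1.03 and 1.16. These 5 and Sbk2 are named after their values were seen.

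Stromal lists showed no member past the threshold apart from Plvap. Endothelial genes had a median of -0.04 over 20 counted members, with Cdh5, the junction cadherin of endothelium, at 93.8 and 80.6 FPKM and Kdr, a VEGF receptor, at 34.5 and 46.3. Fibroblast and matrix genes had a median of 0.02 over 20, with Col1a1 at 26.0 and 27.4 and Dcn, decorin, at 77.5 and 55.8. Smooth muscle and pericyte genes had a median of -0.02 over 10: Acta2, smooth muscle actin, was at 75.5 and 140 and Myh11, smooth muscle myosin, at 10.2 and 10.7. The endothelial median turned positive, and the fibroblast median negative, under other scalings.

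Lower genes outside these programmes included 2 known from digestive organs. Pgc, the precursor of the stomach protease gastricsin, was at 14.4 FPKM on 351 reads in the control heart and had 0 reads in the DHEA heart, at least 103-fold lower against a floor of 3 reads in the DHEA library. In the intestine, Pgc was at 98.4 in control and 0.375 with DHEA, and every other library held at most 1.40. Alb, serum albumin of liver, was at 11.0 and 1.21, 9.07-fold lower (6.64 to 12.7), with 33312 FPKM in the control liver. Ppp1r10, a nuclear regulator of protein phosphatase 1, was at 11.6 and 4.10, 2.83-fold lower (2.51 to 3.20). Cilp, a cartilage and fibroblast matrix protein named after its value was seen, was at 9.91 and 4.25.

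The steroid receptor genes given here were low in both hearts. The oestrogen receptor genes Esr1 and Esr2 had log2 ratios of -0.05 and 0.11, both under 1 FPKM, and Pgr, the progesterone receptor, was at 0 in both. Nr3c1, the glucocorticoid receptor, was at 7.03 and 6.67 FPKM and Nr3c2, the mineralocorticoid receptor, at 4.21 and 2.66. Of the enzymes that convert such steroids, Hsd17b4 was at 33.9 and 35.5 and Hsd17b12 at 9.44 and 12.2. None of the 7 counted genes of this list passed the threshold.

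The heart ratios were set beside those of the other 9 tissue pairs. All 5 counted class II genes and 6 of the 7 atrial list members past the threshold had a heart ratio outside the range of the other tissues. The exception was Dkk3, at 2.06 in heart and 3.09 in brain. Several atrial genes are scarcely expressed elsewhere, with Nppa at no more than 1.94 FPKM and Sln at no more than 1.98 in any other library, so that the added 1 FPKM limits their ratios there, and a heart ratio outside them is in large part built in. The same limit holds for class II genes in brain. Cd74 was at 4.64 and 1.54 FPKM there, H2-Aa at 1.32 and 0.301, and H2-Ab1 at 1.12 and 0.351. Without the added 1 FPKM the heart is not outside the range for these genes. Of the 46 genes past the threshold 24 had a heart ratio outside the range of the other 9 tissues (52.2%), while 480 of all 5620 counted genes did (8.54%). The 46 were chosen for their heart ratio, so part of that gap is built in, and 1 pair against 9 was not tested. Myl7 had ratios between -0.58 in spleen and 1.88 in uterus elsewhere. Its highest level outside the heart was in lung, whose pulmonary veins hold cardiac muscle, at 21.2 FPKM in control and 42.8 with DHEA. The class II median of -1.45 was below that of every other tissue, which lay between -0.74 in kidney and 1.12 in uterus. In brain that median rested on 1 counted gene. The macrophage median of -0.35 was not: kidney was at -0.50. The mitochondrially encoded median of -0.77 lay within the other tissues, with uterus at -2.16, spleen at -1.69 and lung at -1.24 below it and thymus at 0.33 above. Heart had the highest median of the 10 tissues for both nuclear OXPHOS lists, 0.15 and 0.16, followed by thymus at 0.09 and 0.05. The erythroid median of -0.43 was the lowest of the 10, followed by brain at -0.31, against 2.53 in spleen. The globin genes themselves were lower still in brain. Hba-a1 was at -1.77 in brain and -1.03 in heart, Hbb-b1 at -1.87 and -0.84, and Hbb-bt at -1.72 and -0.90.

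**Figure D5:**
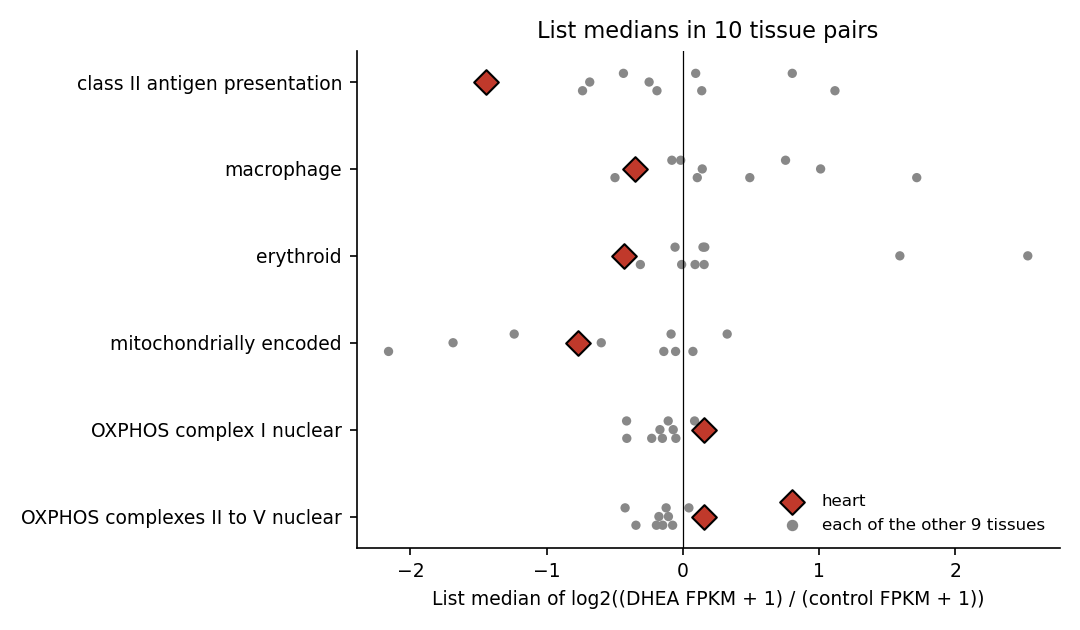
Median log2 ratio of 6 gene lists (x axis) in the heart pair (red diamonds) and in each of the other 9 tissue pairs (grey points), with 1 library per tissue and treatment and only genes of at least 5 FPKM in that tissue. The heart is the lowest for class II genes (-1.45), inside the range for mitochondrially encoded genes (-0.77) and the highest for both nuclear OXPHOS lists. Points are offset vertically for legibility.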

How the data were processed

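Bulk RNA-seq of mouse heart after DHEA or oil gave 1 library each, grouped by the sample titles. The authors deposited FPKM per gene symbol. Alignment used HISAT2 2.0.5, per the submitters' processing notes, which name the builds hg38 and mm39. Nothing in the sources used here names the counting tool, the annotation, the strand setting or the tool behind the log2 table. Reads were recovered because FPKM are whole multiples of 1 read over gene length and library size (100% of 24826 rows, relative tolerance 1e-11, checked on simulated data). These reads gave exact Clopper-Pearson 95% intervals. Such reads are not independent molecules. No count model was fitted, since 1 library a group leaves no residual. The authors' deposited table of log2 DHEA over control (11372 genes) differed from the log2 FPKM ratio in heart by a constant of 0.08 and served as an alternative.

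Named genes are the markers of the comparison, the 15 largest ratios in each direction, list members past 2-fold, members of the main lists, up to 6 abundant members of each list described, and steroid receptors. Some genes named by this rule are not reported here. The members and the 50 lists (973 of 1001 genes found in the table) were chosen with earlier results of these data known. Of the 46 genes past the threshold, 29 are in a list (16 higher, 13 lower). Alternatives were other pseudocounts (0.1 and 5 FPKM), no minimum or 20 FPKM, 3 rescalings and the authors' table. Analyses used Python 3.11.15, numpy 2.4.6, pandas 2.3.3 and scipy 1.17.1.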

Additional observations from a re-analysis of the deposited data

Results flagged for a closer look

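Among the 46 genes past 2-fold in the heart, 18 were past 2-fold in the opposite direction in at least 1 other tissue where they were counted, in 24 gene and tissue combinations, 10 of them in uterus. Each value is a log2 ratio of 1 library against 1, and the difference between tissues was not tested. The matching share over all counted genes is not given. Ratios spread more in uterus, with a standard deviation of 0.98 against 0.26 in heart. Some of these genes also moved with the heart elsewhere. Gpx3 was at 1.74 in spleen, 1.51 in thymus and 1.86 in uterus, and Ccn1 at 1.83 in lung and 1.70 in spleen. Tnfrsf12a was at 1.59 in uterus, and Angptl4 at 1.62 in spleen and 1.21 in liver. Of genes higher in the DHEA heart, Dkk3 was at -1.35 in uterus, Tnfrsf12a at -2.98 in ovary, Stard10 at -1.16 in brain, Gpx3 at -1.57 in brain and Angptl4 at -1.23 in intestine. Ccn1 was at -1.27 and Olfml2b at -1.84 in ovary, Spock2 was at -2.31 in uterus, and the pseudogene Rps2-ps10 was at -1.17 in kidney and -2.11 in uterus. Of genes lower in the DHEA heart, 4 of the class II list were higher in uterus: H2-Eb1 at 1.01, H2-Aa at 1.22, Cd74 at 1.41 and Ctss at 1.51. Igkc was at 1.93 in kidney, 1.11 in thymus and 2.15 in uterus. Mpeg1 was at 1.37 in intestine and 1.36 in uterus, and Cilp at 3.70 in intestine and 2.61 in uterus. Alb was at 1.04 in kidney, and Hba-a1 at 2.06 in liver and 2.89 in spleen.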

How the results depend on the processing

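No paired analysis was possible because each group holds 1 library and the replicate numbers follow accession order, and leaving out a library would leave no comparison. All 46 genes past the threshold kept their direction under each pseudocount and rescaling tried, and all 33 of them in the authors' deposited table did. That outcome was fixed in advance and is no support. A pseudocount added alike to both levels cannot change a direction, and the rescalings and the authors' table moved ratios by far less than 2-fold. With a pseudocount of 5 FPKM 30 stayed past 2-fold, under each of the 3 rescalings 43 did, and 31 of 33 in the authors' deposited table. Equal FPKM sums took CYTB, Cilp and Hba-a1 under the threshold, and the other rescalings took Dusp8, Igfbp6 and Olfml2b under it. The count of higher genes (27) became 16 with a pseudocount of 5 FPKM, 73 with no minimum and 16 with a minimum of 20 FPKM. The count of lower genes (19) became 68 with no minimum and 9 with a minimum of 20 FPKM. Members past 2-fold in the ventricular, conduction, shared muscle, class II and mitochondrial lists together (11) became 7 with a minimum of 20 FPKM. Atrial members past 2-fold (7) became 3 in the authors' deposited table, which holds 3 of the 10, and the genes outside the other tissues' range (24) became 7 of the 33 it holds. More genes enter with no minimum, and fewer with the higher minimum and in the authors' deposited table. Some list medians near 0 changed sign: conduction became -0.040 on centring and -0.061 when rescaled without mitochondrial and the 50 most abundant genes. Endothelium became 0.038 on rescaling to equal FPKM sums and 0.060 in the authors' deposited table. Fibroblast and matrix became -0.050 with a minimum of 20 FPKM, -0.042 on centring and -0.061 rescaled without the abundant genes. The ventricular median became 0.036 on rescaling to equal sums, and the median of all counted genes became -0.022 without the abundant genes. The atrial median ran from 0.45 with no minimum to 2.54, the class II median from -1.53 to -0.70 with no minimum, and the mitochondrially encoded median from -0.85 to -0.55. The ratio of Myl7 to Myl2 within a library, 17.5-fold higher with DHEA (4.13 on the log2 scale), does not depend on scaling.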

Other observations

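Membrane transport and rhythm genes of heart muscle lay under the threshold. Of 17 counted channel and transporter genes 0 were past 2-fold, with a median log2 ratio of 0.04: Kcnk3, a background potassium channel, was at 107 FPKM in control and 134 with DHEA. Circadian clock genes had a median of 0.10 over 9 counted members and 0 past the threshold, with Nr1d1 at 15.3 and 21.96 and Nfil3 at 14.8 and 26.7. The nuclear RNA Malat1 was at 12.9 and 6.57, and Neat1 at 6.39 and 5.15.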
